A study of Mus musculus with 367 samples.

Results

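The genes described here are the 10 members of the insulin-like growth factor (IGF) system that were listed by name, out of 50600 genes measured: the ligands Igf1 and Igf2, the receptors Igf1r and Igf2r, and the binding proteins Igfbp2, Igfbp3, Igfbp4, Igfbp5, Igfbp6 and Igfbp7. All 10 were found in each of the 7 expression matrices. They were followed in 367 single cells sorted as viable, tdTomato-high cells from large excisional wounds on the backs of Sm22-Cre;tdTomato mice of mixed background, aged 3 to 8 weeks at wounding, with wounds of 1.5 by 1.5 cm. The age is that of the labels, and the paper's methods give a narrower range for its wounding experiments, with mice of both sexes. In these mice Cre is driven by the promoter of Sm22 (Tagln), so every group is a set of reporter-positive cells and no unwounded or reporter-negative cells were compared. The 3 groups are the days after wounding (PWD): day 12 with 159 cells in 3 C1 microfluidic captures, day 15 with 117 cells in 2, and day 21 with 91 cells in 2. Wound tissue of 2 to 3 mice was pooled, and whether captures of a day come from 1 pool is not given in the sources used here, so p-values measure the spread between captures, which may be technical. A label of the 40 cells of day 12 capture 3 names the table of capture 2, and they were matched to their own table by title and cell number.

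IGF-I and IGF-II are secreted growth factors that promote the growth and survival of mesenchymal cells. Igf1r encodes the receptor tyrosine kinase that signals for both, while Igf2r encodes the mannose 6-phosphate receptor, which takes up lysosomal enzymes and clears IGF-II. The IGF binding proteins hold the ligands in the extracellular space, where proteases such as HTRA1 and PAPP-A cut some of them, and Igfbp7 encodes a related secreted protein of low affinity for IGF. In skin wounds, fibroblasts and macrophages are known sources of IGF-I.

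Cells were sorted into 3 kinds by limits on 3 genes in FPKM, the fragments of a gene scaled by transcript length and by sequencing depth. Matrix cells had Col1a1 of at least 1000 with Rgs5 below 100 and Tyrobp below 50, mural cells had Rgs5 of at least 500 with Tyrobp below 50, and myeloid cells had Tyrobp of at least 500. After filters on depth, gene number and mitochondrial share, 292 cells remained, of which 198 were matrix cells, 57 mural, 26 myeloid and 11 of no kind. The median estimated depth of the remaining cells was between 959466 and 2366503 fragments per capture, and both day 15 captures were shallower than the other 5. By kind the median was 1458864 fragments in matrix cells, 1215575 in mural cells and 2107618 in myeloid cells. On their markers the kinds were separate in level but not free of each other: all 8 matrix markers had their highest mean in matrix cells, all 8 mural markers in mural cells and all 10 myeloid markers in myeloid cells. These lists include Col1a1, Rgs5 and Tyrobp, whose limits define the kinds. The counts and the sums below therefore follow in part from the limits, and Rgs5 alone averaged 7311 FPKM in mural cells. Summed matrix markers per capture were 21764 to 42191 FPKM in matrix cells, 5109 to 19518 in mural cells and 91.9 to 15374 in myeloid cells, while summed mural and myeloid markers in matrix cells reached at most 64.98 and 94.1 FPKM. Summed endothelial markers ranged from 0.403 to 48.7 FPKM per capture in mural cells, where Cdh5 was at 0 in every cell. There Pecam1 was above 0 in 24 of 57 cells, Tie1 in 8, Egfl7 in 2 and Kdr in 1, and Egfl7 averaged 8.93 FPKM. The keratinocyte genes Krt5, Krt1 and Epcam were at 0 in every cell of all 3 kinds. Krt10 was above 0 in 46 of 198 matrix, 9 of 57 mural and 1 of 26 myeloid cells, and Krt14 in 1, 3 and 0.

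Mural cells were not uniform, and this bears on most results below. Of the 57 mural cells, 19 had Col1a1 at or above 1000 FPKM, the limit used for matrix cells, and 38 were below it. Day 21 had mural cells in 1 capture only, and its 8 cells fell into 4 with Col1a1 of 141 to 430 FPKM and Rgs5 of 4359 to 19993 FPKM, and 4 with Col1a1 of 11792 to 15439 FPKM, Rgs5 of 1499 to 2433 FPKM and Notch3 of at most 1.04 FPKM. Likewise 4 of the 26 myeloid cells had Col1a1 at or above 1000 FPKM, 2 of them among the 4 myeloid cells of day 15 capture 2. Differences between kinds that moved without the cells at or above 1000 FPKM of Col1a1 are therefore given both ways, and the part of the cells with both signals in the differences was not tested beyond this. Col1a1 also defines the matrix cells, so this choice of cells can itself widen a difference. The median over all genes tested went from -0.22 to -0.72 for mural cells and from -0.999 to -1.23 for myeloid cells.

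Of the members that passed between mural and matrix cells, Igf1 had the largest negative difference and Igfbp7 the only positive one, and the 250 bases before their RefSeq starts (GRCm38.p6) are shown for that reason. Capitals mark matches on either strand to a CCAAT box (CCAAT), a GC box (GGGCGG) or a TATA box (TATAAA), which do not overlap each other in these windows. The Igf1 window is chr10:87860861-87861110 on the plus strand and the Igfbp7 window is chr5:77408046-77408295 on the minus strand. The Igf1 window lies inside the gene span given below, which begins at 87858265. It therefore precedes 1 start within the gene and is not the sequence before the gene's first base.
Igf1: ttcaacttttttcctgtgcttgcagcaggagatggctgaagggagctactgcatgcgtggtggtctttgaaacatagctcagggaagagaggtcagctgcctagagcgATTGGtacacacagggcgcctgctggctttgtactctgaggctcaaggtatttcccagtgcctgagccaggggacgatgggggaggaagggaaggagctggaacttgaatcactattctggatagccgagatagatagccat
Igfbp7: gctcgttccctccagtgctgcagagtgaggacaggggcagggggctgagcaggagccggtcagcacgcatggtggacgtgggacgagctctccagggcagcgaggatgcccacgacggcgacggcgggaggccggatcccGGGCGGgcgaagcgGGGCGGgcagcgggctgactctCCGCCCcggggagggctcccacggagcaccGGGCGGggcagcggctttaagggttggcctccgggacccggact
The Igf1 window held 1 CCAAT box and no GC box, and the Igfbp7 window held 4 GC boxes and no CCAAT box, while neither held the TATA letters. Of 32851 mouse promoter windows of this length, 33.8% held a CCAAT box, 32.7% a GC box and 12.4% a TATA box, so these matches describe the windows and say nothing of a factor that binds them.

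Igf1 was an RNA of matrix and myeloid cells and was lower in mural cells. The gene (ENSMUSG00000020053, chromosome 10, 87858265 to 87937042 of mm10, plus strand) had mean levels between 237 and 849 FPKM in the matrix cells of the 7 captures, with a median of 537. In myeloid cells the means were 573 FPKM at day 12 capture 2, 588 at day 15 capture 2, and 606 and 652 at day 21. In mural cells they were 43.02, 0.060 and 33.9 FPKM in the 3 day 12 captures, 25.6 at day 15 capture 1 and 369 at day 21 capture 1. Mural means were below the matrix mean of the same capture in 5 of 5 captures, and every myeloid mean lay inside the matrix range. The mural minus matrix difference was -4.31 on the log2(mean FPKM + 1) scale (standard error 0.89, limma adjusted p = 0.045, n = 5 captures). Without day 12 capture 2 the difference was -3.14 (adjusted p = 0.044) and without day 21 capture 1 it was -5.25 (adjusted p = 0.013, both from limma). The difference did not pass without day 12 capture 1 (-4.42, adjusted p = 0.12), day 12 capture 3 (-4.23, adjusted p = 0.14) or day 15 capture 1 (-4.49, adjusted p = 0.13, all from limma). Over all alternatives the limma adjusted p ran from 1.5e-05 to 0.38. Myeloid and matrix cells differed by 0.44 (95% interval -0.84 to 1.73, limma adjusted p = 0.65, n = 4 captures), which does not show that the levels are alike.

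Within mural cells, Igf1 went with Col1a1. At 10 FPKM or more it was found in 13 of the 19 mural cells at or above 1000 FPKM of Col1a1 and in 4 of the 38 below. All of the Igf1 of day 21 mural cells was in the 4 cells with high Col1a1, at 417 to 1275 FPKM, and the other 4 were at 0. With only the mural cells below the limit, capture means were 0.68, 0.054 and 7.93 FPKM at day 12, 7.40 at day 15 capture 1 and 0 at day 21 capture 1, and the difference from matrix cells was -7.68 (standard error 0.64, limma adjusted p = 3.2e-05). Single-cell values were spread widely in matrix cells too, where 160 of 198 cells had at least 10 FPKM, the median cell had 254 and the highest 3583.

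**Figure D1:**
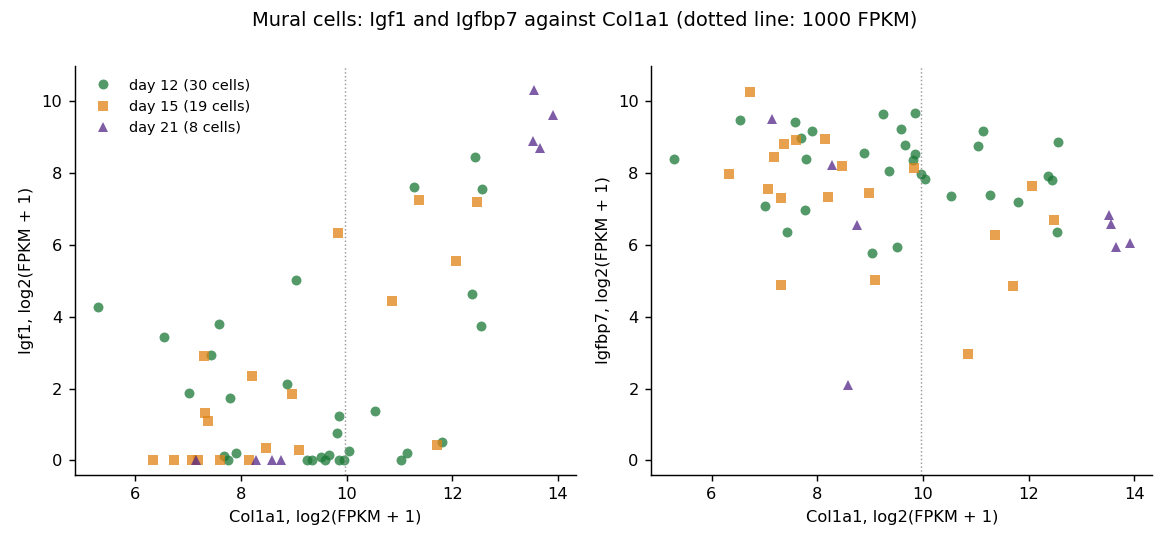
Igf1 (left) and Igfbp7 (right) in the 57 mural cells against Col1a1, all as log2(FPKM + 1), with 1 point per cell and the day by colour and shape. The 4 day 21 cells at the far right hold 417 to 1275 FPKM of Igf1 and the other 4 day 21 cells are at 0, while Igfbp7 was above 0 in all 57 cells.

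Igf2 was rare, and in matrix cells it was found mostly at day 12. The gene (ENSMUSG00000048583, chromosome 7, 142650766 to 142666816, minus strand) shares exon positions with the antisense gene Igf2os, and without strand in the libraries the reads of both cannot be told apart. It also shares exon positions with ENSMUSG00000115302 on the same strand, a gene that was not among those measured. In matrix cells the capture means were 24.3, 2.75 and 27.2 FPKM at day 12, 0.046 and 0 at day 15, and 0 in both day 21 captures. Values above 0 came from 11 of 74 matrix cells at day 12, 1 of 72 at day 15 and 0 of 52 at day 21, and the last, by counting error alone, leaves room for 5.77% of cells with a value above 0, which is no limit on cells that express the gene. A single cell of 733 FPKM gave most of the level of day 12 capture 1. All of the level of day 12 capture 2 came from 2 cells, at 34.65 and 36.9 FPKM, whose values were close in several other members too. In mural cells the means were 0, 13.9 and 38.1 FPKM at day 12, 3.53 at day 15 capture 1 and 0 at day 21 capture 1. No myeloid cell had a value above 0 (0 of 26, which leaves room for 11.5% in the same sense).

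The signalling receptor Igf1r was nearly absent from myeloid cells, the kind with the highest median level of its ligand Igf1 per cell. Igf1r (ENSMUSG00000005533, chromosome 7, 67952827 to 68233668, plus strand) had matrix means between 12.8 and 108.5 FPKM, with a median of 55.5. Mural means were 13.1, 68.9 and 39.2 FPKM at day 12, 11.6 at day 15 capture 1 and 9.99 at day 21 capture 1, within or just below the matrix range. Myeloid means were 1.22 FPKM at day 12 capture 2, 1.05 at day 15 capture 2, and 0.11 and 0.23 at day 21, all below every matrix mean. The myeloid minus matrix difference was -5.02 (standard error 1.17, limma adjusted p = 0.034, lower in 4 of 4 captures, range over the alternatives 0.014 to 0.22). The mural minus matrix difference was -0.96 (adjusted p = 0.47) with all mural cells and -2.02 (adjusted p = 0.20, both from limma) with those below 1000 FPKM of Col1a1. Myeloid cells were the deepest kind by median fragments but had the fewest genes above 0. Their median was 4962 genes, against 5808 in matrix cells and 5181 in mural cells, and the part of this in Igf1r was not tested. Levels of at least 10 FPKM were seen in 56 of 198 matrix cells, 14 of 57 mural cells and 0 of 26 myeloid cells, and the matrix mean rested on few cells, since the median matrix cell had 1.52 FPKM and the highest 945. In day 12 capture 2 the highest matrix values, 394.71 and 420.22 FPKM, were in 2 cells that were close in other members too.

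Ligand and receptor were found in the same matrix cells about as often as their separate shares give. Both Igf1 and Igf1r reached 10 FPKM in 45 of 198 matrix cells, or 22.7%, where the product of the separate shares is 22.9%, while 115 had Igf1 alone, 11 Igf1r alone and 27 neither. Of the 57 mural cells 7 had both, or 12.3% where the product of shares is 7.33%, 10 Igf1 alone, 7 Igf1r alone and 33 neither. In myeloid cells 21 had Igf1 alone, 5 neither and none had Igf1r.

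Igf2r, the clearing receptor, was found in most matrix and mural cells. Igf2r (ENSMUSG00000023830, chromosome 17, 12682406 to 12769664, minus strand) reached 10 FPKM in 147 of 198 matrix cells and 40 of 57 mural cells but in 3 of 26 myeloid cells. Matrix means ran from 10.6 to 51.8 FPKM with a median of 44.6. Mural means were 77.4, 50.8 and 45.9 FPKM at day 12, 33.6 at day 15 capture 1 and 23.025 at day 21 capture 1. The mural minus matrix difference was 0.05 (95% interval -1.04 to 1.13, adjusted p = 0.98 from limma), which leaves room for a difference of about 1 in either direction. Myeloid means of 2.27, 5.85, 5.86 and 0 FPKM were below every matrix mean, but the difference of -3.13 did not pass (standard error 1.10, limma adjusted p = 0.086).

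**Figure D2:**
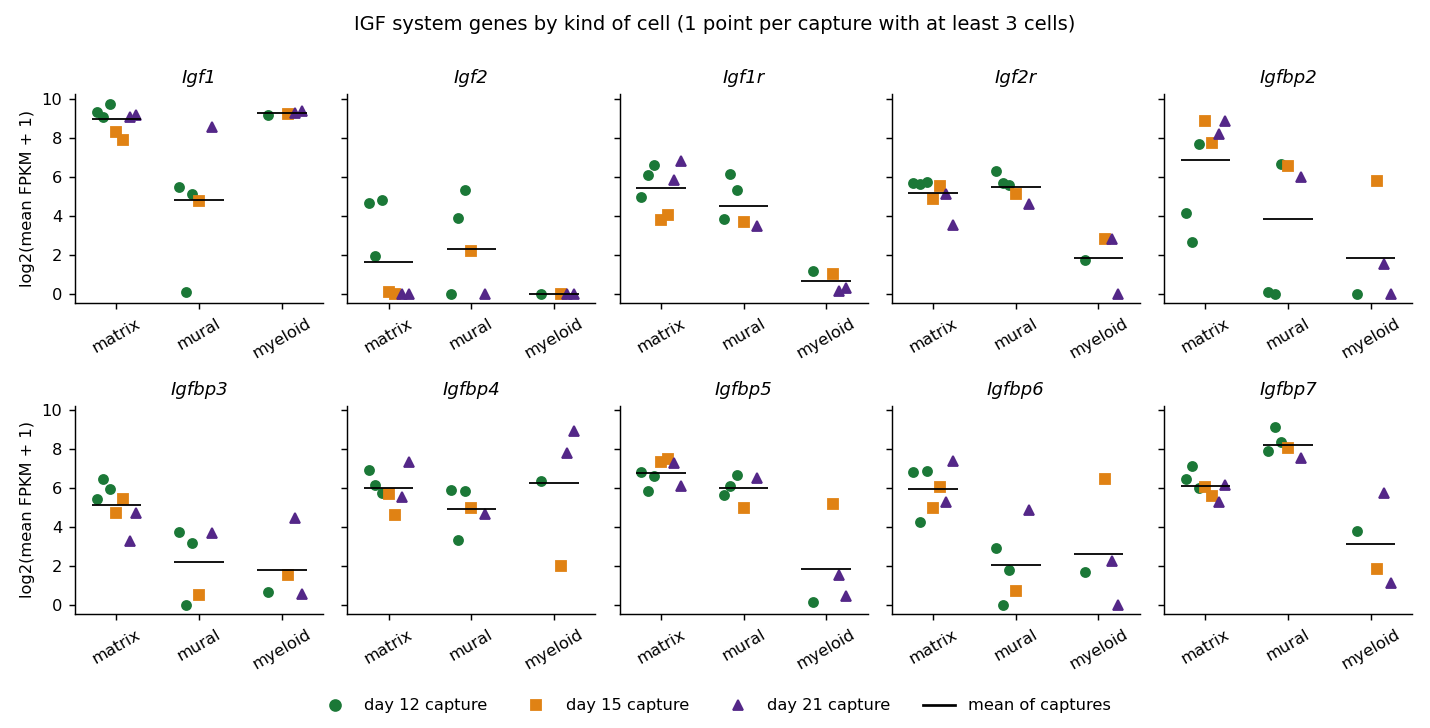
Mean level of each IGF system gene in matrix, mural and myeloid cells as log2(mean FPKM + 1), with 1 point per capture of at least 3 cells, the day by colour and shape and the mean of captures as a line. Igfbp7 is higher in mural than in matrix cells, Igf1 lower, and Igf1r lies at 1.22 FPKM or less in all 4 myeloid groups.

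Igfbp7 was the binding protein RNA of mural cells. Igfbp7 (ENSMUSG00000036256, chromosome 5, 77349240 to 77408041, minus strand) shares exon positions with Polr2b on the other strand. It was above 0 in 57 of 57 mural cells and at 10 FPKM or more in 55, against 120 of 198 matrix cells and 3 of 26 myeloid cells. Mural means were 233, 555 and 329 FPKM at day 12, 260 at day 15 capture 1 and 182 at day 21 capture 1, and matrix means ran from 38.3 to 135 FPKM with a median of 65.7. The groups did not overlap, and Igfbp7 was higher in mural cells in 5 of 5 captures by 2.00 (standard error 0.32, limma adjusted p = 0.012, range over the alternatives 6.4e-05 to 0.11). With only mural cells below 1000 FPKM of Col1a1 the difference was 2.23 (adjusted p = 0.041 from limma). Unlike Igf1, it was present on both sides of that limit, with means of 356 FPKM in the 38 cells below and 183 FPKM in the 19 cells above.

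Igfbp2 and Igfbp6 were lower in mural than in matrix cells. Igfbp2 (ENSMUSG00000039323, chromosome 1, 72824503 to 72852474, plus strand), a binding protein with an integrin-binding motif, had mural means of 0.052, 0 and 101 FPKM at day 12, 90.9 at day 15 capture 1 and 61.1 at day 21 capture 1. Its matrix means ran from 5.16 to 467 FPKM with a median of 211, so the groups overlapped across captures, but within captures it was lower in mural cells in 5 of 5 (difference -2.46, standard error 0.47, limma adjusted p = 0.032, range over the alternatives 0.014 to 0.51). Igfbp6 (ENSMUSG00000023046, chromosome 15, 102144362 to 102149511, plus strand), which prefers IGF-II, had mural means of 6.50, 0 and 2.43 FPKM at day 12, 0.63 at day 15 capture 1 and 27.7 at day 21 capture 1, against 17.8 to 166 FPKM in matrix cells with a median of 65.1. Its difference was -3.58 (standard error 0.72, limma adjusted p = 0.041, range over the alternatives 0.0038 to 0.27). With mural cells below 1000 FPKM of Col1a1 the differences were -5.02 for Igfbp2 (adjusted p = 0.014) and -5.60 for Igfbp6 (adjusted p = 0.0038, both from limma). Among these cells, 1 of 38 had Igfbp6 above 0, at 1.10 FPKM, and 3 of 38 had Igfbp2 of at least 10 FPKM.

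Igfbp3 (ENSMUSG00000020427, chromosome 11, 7206086 to 7213923, minus strand), the main carrier of IGF in blood, did not pass with all mural cells and passed without those high in Col1a1. Its mural means were 12.3, 0 and 8.06 FPKM at day 12, 0.40 at day 15 capture 1 and 12.0 at day 21 capture 1, and its matrix means 8.58 to 84.9 FPKM with a median of 42.05. The difference was -2.93 (standard error 0.90, limma adjusted p = 0.17). With mural cells below 1000 FPKM of Col1a1 it was -5.05 (standard error 0.88, limma adjusted p = 0.0081), and none of these 38 cells reached 10 FPKM. With these cells 5 members passed, beside 563 of all 13493 genes tested, 111 of them as higher. With all mural cells 214 of 13821 genes passed. Igfbp4 (ENSMUSG00000017493, chromosome 11, 99041244 to 99054392, plus strand) and Igfbp5 (ENSMUSG00000026185, chromosome 1, 72857932 to 72874884, minus strand) had differences of -1.07 (adjusted p = 0.41) and -0.80 (adjusted p = 0.50), or -1.33 (adjusted p = 0.36) and -1.70 (adjusted p = 0.33, all from limma) with the low-Col1a1 cells, with matrix and mural means that overlapped.

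In all, 1 of the 10 genes passed as higher in mural cells and 3 as lower, where 0.904% of the 13821 genes tested passed as higher and 0.644% as lower. The median difference was -1.02 over the 10 genes and -0.22 over all genes tested. Leaving out any 1 capture left 1 to 3 members past the threshold, and none passed without a filter on low values or without the variance trend.

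**Figure D3:**
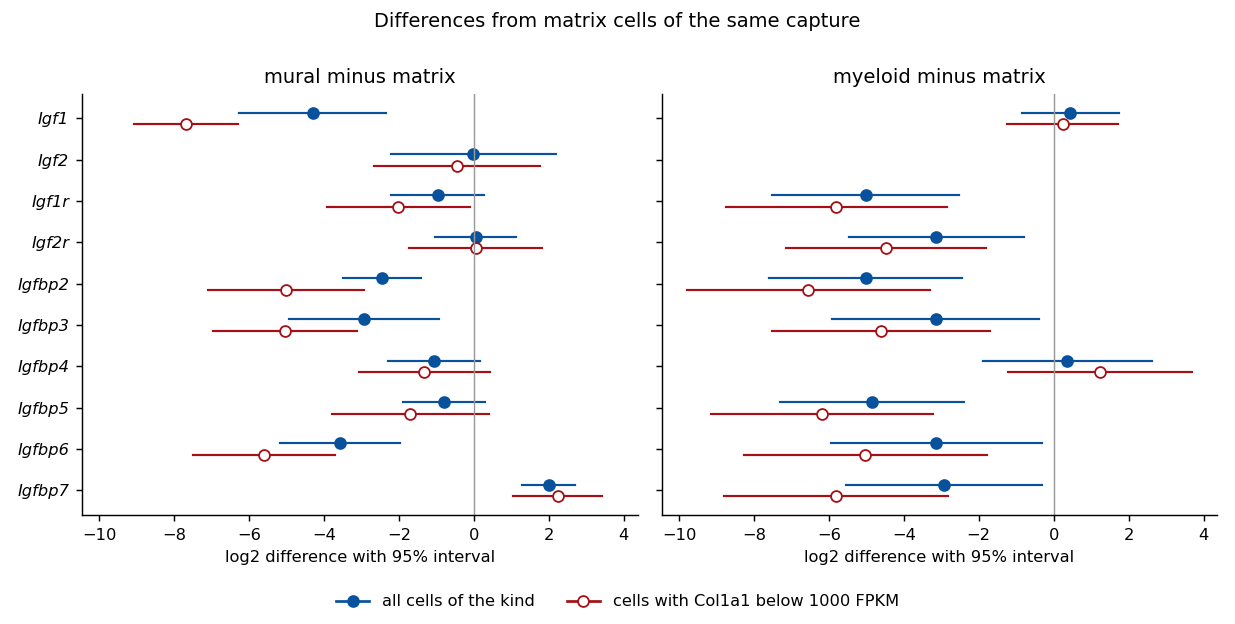
Differences of mural (left) and myeloid (right) from matrix cells of the same captures, as log2 differences with 95% intervals, for all cells of the kind (filled, blue) and for cells below 1000 FPKM of Col1a1 (open, red). The difference in Igf1 is -4.31 and -7.68 in mural cells and near 0 in myeloid cells, and the mural difference in Igfbp7 is above 0 in both.

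Igfbp4 led the binding protein RNAs in 3 of the 4 myeloid capture means, and day 15 capture 2 differed. In that capture, where 2 of 4 myeloid cells had high Col1a1, Igfbp6 was at 87.1 FPKM, above the matrix mean of 65.1, and Igfbp4 made up 1.64% of the summed Igfbp FPKM. All of this Igfbp6 came from 1 of the 4 cells, at 348.5 FPKM, which also had Col1a1 of 10805 FPKM. Igfbp4, which is cut by PAPP-A when IGF is bound, had myeloid means of 80.2 FPKM at day 12 capture 2, 3.02 at day 15 capture 2 and 216 and 483 FPKM at day 21, against 23.1 to 158 FPKM in matrix cells with a median of 52.6. The groups overlapped and the difference of 0.37 did not pass (interval -1.89 to 2.62, adjusted p = 0.84 from limma). Igfbp5, a binding protein that attaches to extracellular matrix, had myeloid means of 0.10, 35.2, 1.86 and 0.36 FPKM in the same order and matrix means of 55.8 to 174 FPKM with a median of 110, with no overlap. It was lower in myeloid cells in 4 of 4 captures (difference -4.85, standard error 1.15, limma adjusted p = 0.037, range over the alternatives 0.0066 to 0.16). Igfbp2 was at 0, 54.3, 1.83 and 0 FPKM in myeloid cells, and its difference was -5.02 (standard error 1.21, limma adjusted p = 0.037, range over the alternatives 0.017 to 0.27). The 54.3 FPKM came from day 15 capture 2, where 1 of 4 cells had 215 FPKM.

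Igfbp3, Igfbp6 and Igfbp7 had differences of -3.15, -3.13 and -2.93 with adjusted p between 0.13 and 0.14 from limma. Each exceeded 10 FPKM in 1 to 3 of the 26 myeloid cells, and Igfbp7 reached a mean of 51.7 FPKM at day 21 capture 1. Of the 22 myeloid cells below 1000 FPKM of Col1a1, none reached 10 FPKM of Igfbp2, Igfbp3, Igfbp5 or Igfbp7 and 1 reached it for Igfbp6, while 17 did for Igf1 and 12 for Igfbp4. With these cells 3 captures had enough cells, and Igfbp2 (-6.55, adjusted p = 0.047) and Igfbp5 (-6.18, adjusted p = 0.042) passed while Igf1r (-5.81, adjusted p = 0.052, all from limma) did not. The same cells gave -5.82 for Igfbp7 (adjusted p = 0.054), -5.03 for Igfbp6 (adjusted p = 0.064), -4.62 for Igfbp3 (adjusted p = 0.061) and -4.47 for Igf2r (adjusted p = 0.057, all from limma), none of which passed.

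Of the 9 genes tested between myeloid and matrix cells, none passed as higher and 3 as lower, where 1.46% of the 13056 genes tested passed as higher and 3.96% as lower. The median difference over the 9 genes was -3.13 and over all genes tested -0.999. Without day 15 capture 2, 1 member passed, and none passed without any of the other 3 captures. Both comparisons use the matrix means of shared captures, and fewer cells with an RNA and less RNA per cell both lower a capture mean.

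The makeup of binding protein RNA differed in the same way when each cell was described by the gene with the highest FPKM. Igfbp7 led in 41 of 57 mural cells, Igfbp2 in 5, Igfbp4 in 5 and Igfbp5 in 4, and 2 had no binding protein at 10 FPKM. Igfbp4 led in 13 of 26 myeloid cells and 9 had none at 10 FPKM. By day Igfbp7 led in 25 of 30, 13 of 19 and 3 of 8 mural cells. In matrix cells the order differed between days. At day 12 Igfbp7 led in 23 of 74 matrix cells, Igfbp3 and Igfbp5 in 14 each and Igfbp2 in 5. At day 15 Igfbp2 led in 36 of 72 and Igfbp5 in 20, with Igfbp7 in 5. At day 21 Igfbp2 led in 23 of 52, Igfbp4 in 11 and Igfbp5 in 10, and Igfbp7 in none. As a share of the summed FPKM of the 6 genes, Igfbp7 made up 63.4% ± 15.7 (SD, n = 5 captures) in mural cells and 13.7% ± 10.8 (SD, n = 7) in matrix cells. The summed level itself was 369 to 940 FPKM per capture in matrix cells, 359 to 632 in mural cells and 96.0 to 485 in myeloid cells.

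**Figure D4:**
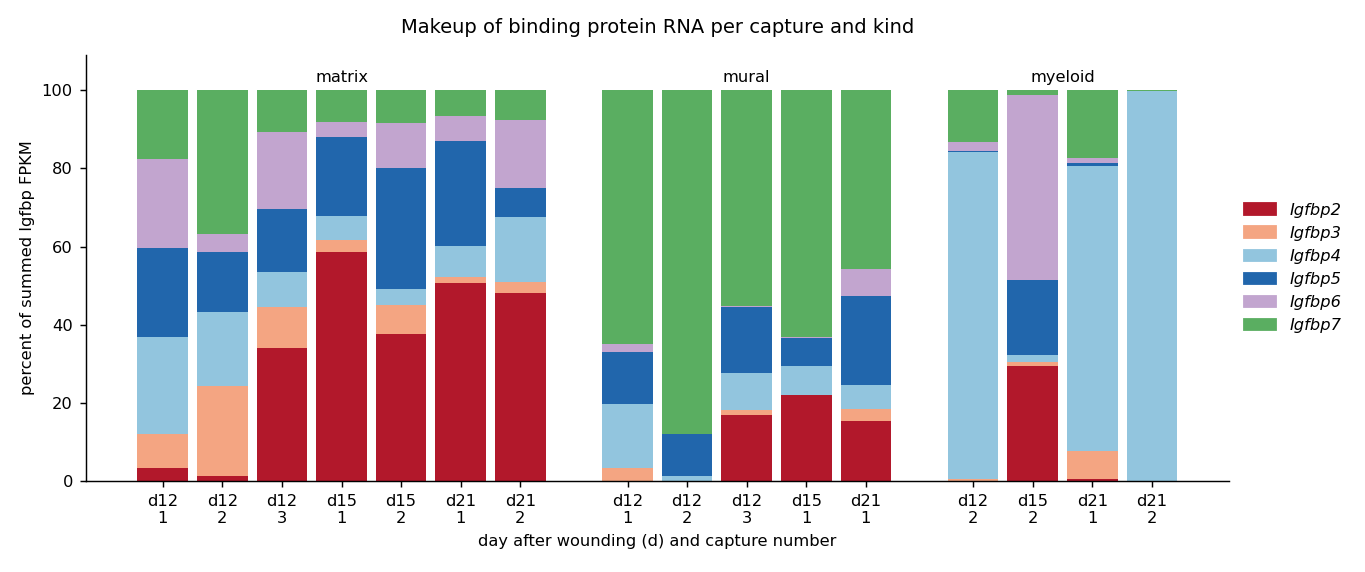
Share of each binding protein gene in the summed mean FPKM of the 6 Igfbp genes, in percent, with 1 bar per capture (day and capture number below) for matrix, mural and myeloid cells. Igfbp7 makes up the largest share in every mural bar, and Igfbp2 averages 13.01% of the sum at day 12 and 48.7% at the later days in matrix cells.

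The days were compared in matrix cells, the kind present in all 7 captures, to ask how the IGF genes vary as the wound matures. None of the 10 genes passed in any pair of days by limma, where 0% of 13550 genes passed for day 15 against day 12, 0.00738% for day 21 against day 12 and 0.00738% for day 21 against day 15. Unadjusted p was below 0.05 for 4, 3 and 2 of the 10 genes in these comparisons, and for 786, 938 and 744 of the 13550 genes. The 1 gene that passed in both of the latter was Gm2564, named here after its values were seen.

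Igfbp2 lay at 10 FPKM or more in a larger share of matrix cells at the later days. Its matrix means were 16.8, 5.16 and 200 FPKM at day 12, 467 and 211 at day 15, and 293 and 453 at day 21, so each later capture was above all day 12 captures, the nearest by 211 against 200 FPKM. Cells with at least 10 FPKM were 12 of 74 at day 12, 50 of 72 at day 15 and 43 of 52 at day 21. The differences from day 12 were 3.49 (interval 0.97 to 6.01) at day 15 and 3.70 (interval 1.19 to 6.22) at day 21, with limma adjusted p = 0.72 and 0.55. With log2(FPKM + 1) averaged over cells in place of the log2 of the mean, both passed by limma, at 4.27 (adjusted p = 0.040) and 5.11 (adjusted p = 0.0070), and over all alternatives adjusted p ran from 0.040 to 0.93 and from 0.0070 to 0.87. Day 12 capture 3 stood apart from the other day 12 captures with 7 of 17 cells at 10 FPKM or more, against 4 of 31 and 1 of 26, and without it the differences were 4.91 (adjusted p = 0.16) and 5.13 (adjusted p = 0.075, both from limma).

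Igf2, Igf2r and Igfbp3 had all day 12 captures above all later captures in matrix cells, and Igfbp2 all below. Of 13550 genes, 5.11% had the first pattern and 2.36% the second. Igf2r means were 50.3, 47.9 and 51.8 FPKM at day 12, 28.4 and 44.6 at day 15 and 33.9 and 10.6 at day 21. Igfbp3 means were 42.3, 84.9 and 60.6 FPKM at day 12, 24.8 and 42.05 at day 15 and 8.58 and 25.5 at day 21, with 42.33 against 42.05 FPKM as the closest pair. The differences between day 21 and day 12 were -1.34 for Igf2r (adjusted p = 0.73), -1.94 for Igfbp3 (adjusted p = 0.59) and -3.80 for Igf2 (adjusted p = 0.49, all from limma).

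Igf1 and Igf1r were lowest in the 2 captures of day 15, which were also the shallowest. Igf1 means were 633, 537 and 849 FPKM at day 12, 314 and 237 at day 15, and 535 and 567.9 at day 21. Cells with at least 10 FPKM were 63 of 74, 56 of 72 and 41 of 52 in order of day. Igf1r means were 29.5, 65.8 and 96.6 FPKM at day 12, 12.8 and 15.4 at day 15, and 55.5 and 108.5 at day 21. The differences of day 15 from day 12 were -1.27 for Igf1 (adjusted p = 0.60) and -1.96 for Igf1r (adjusted p = 0.69, both from limma), and the part of depth in them was not tested. Igfbp4, Igfbp5, Igfbp6 and Igfbp7 had differences between -1.14 and 1.28 in the 3 comparisons, with adjusted p of at least 0.78 in limma. With log2(FPKM + 1) averaged over cells, day 15 minus day 12 was 2.69 for Igfbp5 (adjusted p = 0.17), -2.07 for Igfbp7 (adjusted p = 0.18) and -1.78 for Igfbp4 (adjusted p = 0.24, all from limma). From day 12 to day 15, cells with at least 10 FPKM were 30 of 74 and 55 of 72 for Igfbp5, 60 of 74 and 35 of 72 for Igfbp7, and 44 of 74 and 15 of 72 for Igfbp4.

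Whether the mural minus matrix difference itself changed after day 12 was tested for all genes with limma, and 0% of 13821 passed (678 at an unadjusted p below 0.05). For Igf1 the later difference minus that of day 12 was 3.76 (standard error 1.44, limma unadjusted p = 0.027 and adjusted p = 0.91), and with mural cells below 1000 FPKM of Col1a1 this value was 0.89 (adjusted p = 0.94). No other member had an unadjusted p below 0.05 with all mural cells, and with the low-Col1a1 cells Igfbp5 had -4.37 (limma unadjusted p = 0.019 and adjusted p = 0.90).

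Among matrix cells of 1 capture, Igfbp2 and Igfbp3 tended to lie in different cells. At 10 FPKM, 18 of 198 matrix cells had both, 87 had Igfbp2 alone, 48 had Igfbp3 alone and 45 had neither. At day 12 33 of 74 cells had Igfbp3 alone and 9 Igfbp2 alone, and at day 21 3 of 52 had Igfbp3 alone and 37 Igfbp2 alone. Cells with both were 3, 9 and 6 at days 12, 15 and 21. These counts pool captures, follow in part the share of each gene on each day, and were not set against the product of the shares. The rank correlation across matrix cells within a capture was negative in 7 of 7 captures, from -0.58 to -0.23 with a median of -0.41. Igfbp2 was also negative with Igf2r (median -0.33) and Igfbp4 (median -0.27) in 7 of 7 captures. Igf1 was positive with Igfbp6 (median 0.38, range 0.23 to 0.51) and with Igf2r (median 0.30, range 0.20 to 0.63) in 7 of 7. Igfbp5 with Igfbp6 was also always negative, and Igfbp2 with Igfbp5, Igf1 with Igfbp4 and Igfbp3 with Igfbp4 always positive. Each of these came near 0 in some capture, at -0.025, 0.026, 0.020 and 0.049 in the same order. Igf2 was in none of the pairs. Most pairs of the other members had mixed signs, and pairs of other genes were not examined. These are descriptions across cells of 17 to 50 matrix cells per capture, which share a library preparation and differ in depth.

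**Figure D5:**
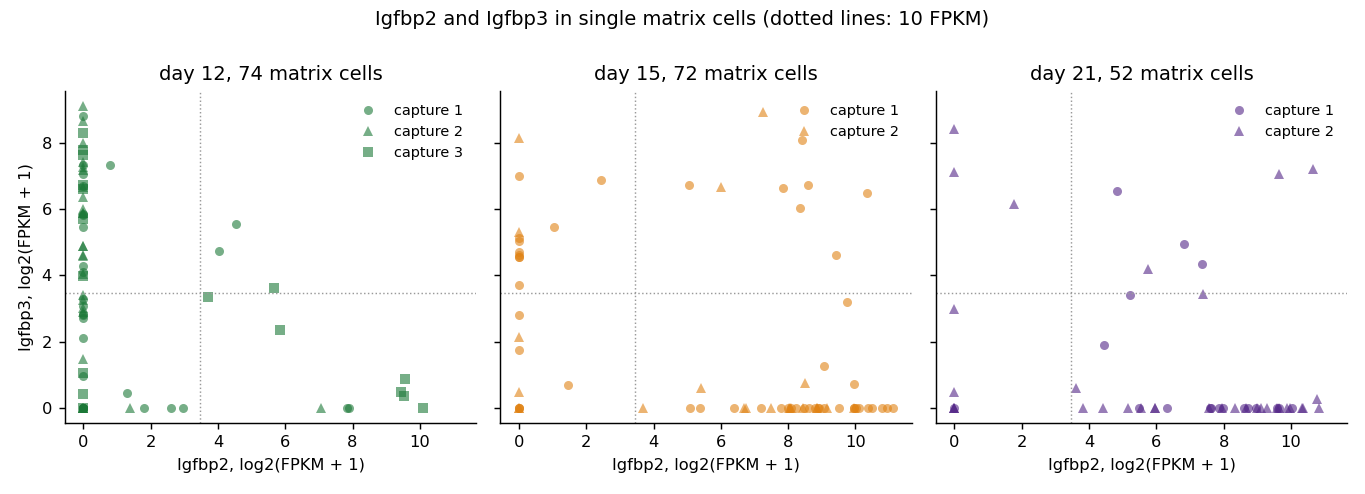
Igfbp2 (horizontal) and Igfbp3 (vertical) in single matrix cells as log2(FPKM + 1) at day 12, 15 and 21, with captures by shape and dotted lines at 10 FPKM. At day 12 most points lie along the vertical axis, at day 21 most lie along the horizontal axis, and 18 of 198 cells lie past both lines.

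Of 33 further genes of the IGF pathway, 24 had enough signal to be tested between kinds. None passed between mural and matrix cells by limma, with 6 of 24 at an unadjusted p below 0.05 beside 2004 of all 13821 genes. Among the highest differences were those of Foxo1 (1.61, adjusted p = 0.19), a transcription factor restrained by insulin and IGF signalling, and the PI3-kinase subunit Pik3r1 (1.31, adjusted p = 0.39). The lowest were those of Igf2bp2 (-2.29, adjusted p = 0.34), an RNA-binding protein, the insulin receptor Insr (-1.60, adjusted p = 0.36) and the serine protease Htra3 (-1.59, adjusted p = 0.36). The median over the 24 was -0.47.

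Between myeloid and matrix cells 1 of 24 passed, as lower, a share near the 3.96% of all genes. Htra1, a secreted serine protease that cuts IGF binding proteins, was lower in myeloid cells (difference -4.30, standard error 0.98, limma adjusted p = 0.032). The imprinted RNA H19 (-3.83, adjusted p = 0.066) and the adaptor Grb10 (-3.60, adjusted p = 0.070) were next, and the highest values were those of the adaptor Grb2 (1.75, adjusted p = 0.36), the receptor substrate Irs2 (1.46, adjusted p = 0.41) and the transcription factor Foxo3 (0.95, adjusted p = 0.60). The median over the 24 was -1.88. Between days in matrix cells, 23 of the 33 were tested and none passed by limma, with 5, 4 and 3 at an unadjusted p below 0.05 beside 786, 938 and 744 of all 13550 genes.

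Genes among the most like each member over the 16 capture means of the 3 kinds, out of 6778 genes averaging 10 FPKM or more, were found by Pearson correlation of log2(mean FPKM + 1), as a description, since these means share captures. For Igfbp7 they were Kars (r = 0.97), Il1r1 (0.95) and Gng11 (0.95), and for Igf1 Bhlhe41 (0.88), Herpud1 (0.82) and Adcy7 (0.81). For Igfbp2 they were Cpz (0.91), Slit3 (0.89) and Fbln5 (0.89), and for Igfbp6 Cd34 (0.94), Col14a1 (0.91) and Twsg1 (0.89). For Igfbp3 they were Kera (0.94), Brinp3 (0.92) and Pcdh7 (0.91), for Igfbp5 Ptprs, Bace1 and Wnt5a (each 0.95), and for Igfbp4 Phf23 (0.90), Selenok (0.88) and Map2k2 (0.87). Igf2r was nearest to Bmp1 (0.94), Lamb1 (0.93) and Nrep (0.92), Igf1r was close to Ppa1 and Medag (each 0.92), and Igf2 to Acy1 (0.88), Tamm41 (0.84) and Serpina3g (0.81).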

How the data were processed

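Full-length cDNA of single cells from the C1 system was sequenced as paired ends without strand, and per the labels the authors aligned reads with Bowtie 1.0.0 and estimated expression with RSEM on mm10 (GENCODE mouse release 13, from the study's methods). The deposited values are FPKM per cell, with no counts, so tests on counts were not run. No 2 cells held identical values. However, 2 matrix cells of day 12 capture 2 were close in several members, at 394.71 and 420.22 FPKM of Igf1r and 314.7 and 327.71 of Igfbp7. Their Igf2r was 36.71 and 38.48 FPKM and their Col1a1 3019.97 and 2797.77, while their Igfbp3 was 6.39 and 0. Whether they are independent cells was not tested. Gene names and positions were taken from GENCODE release 21, which held 50376 of 50600 identifiers. Fragments per cell were estimated from the steps between a cell's FPKM values on 9426 single-transcript genes. On 91 cells simulated at their own estimated depth, the median ratio of the new estimate to that depth was 1.03. The simulation drew whole counts from the estimates themselves, so it cannot test the depths of the real cells. Cells with at least 159000 fragments, at most 11000 genes and at most 15% mitochondrial FPKM were kept. Mean FPKM was taken per capture and kind with at least 3 cells, and log2(mean + 1) was tested with limma 3.58.1 (R 4.3.3, variance trend, two-sided, Benjamini-Hochberg over all genes averaging 1 FPKM or more, threshold 0.05). Kinds were compared with capture as a block, and Col1a1, Rgs5 and Tyrobp, which define them, were left out of the tests. A pseudocount understates changes of low genes. Correlations and figures used Python 3.11.15. Depth limits detection, since 1 fragment is worth more FPKM in shallow cells and short transcripts.

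The 10 members, the pathway list, the markers and the limits of the kinds were chosen with earlier results of these data known. Named beside the members were pathway genes that passed, the 3 highest and 3 lowest in the kind comparisons, and the 3 genes with the most similar pattern. Some genes that this rule names are not reported here. Summed contractile, Schwann and T cell markers per capture were 107 to 928, 0.027 to 38.0 and 0 to 5.55 FPKM in matrix cells, 462 to 3122, 0.071 to 76.0 and 0 to 0.77 in mural cells, and 0.38 to 286, 0.032 to 1.82 and 0 to 0.065 in myeloid cells, and summed keratinocyte markers reached at most 17.1 FPKM in any capture. Alternatives changed the pseudocount, the low-value filter, the cell filter, the averaging, the scaling, the kind limits, the minimum number of cells, the variance trend, the Col1a1 limit, the block and each capture in turn.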

Additional observations from a re-analysis of the deposited data

Results flagged for a closer look

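The per-capture differences between kinds were examined for 1 capture far from the others in 20 groups of 4 or 5 captures, and 4 were found, where chance gives about 1 in 20. In the mural minus matrix difference of Igfbp6, day 21 capture 1 was at -0.415 while the other 4 captures lay between -5.07 and -3.89. This is the capture in which 4 of the 8 mural cells had Col1a1 of 11792 FPKM or more, and all of its Igfbp6 lay in those 4 cells, with the other 4 at 0. In the myeloid minus matrix differences, day 15 capture 2 stood apart for Igf1, at 1.31 against 0.10 to 0.20 in the other 3 captures, and for Igfbp5, at -2.27 against -5.77 to -5.66. In that capture 2 of 4 myeloid cells had Col1a1 of at least 1000 FPKM, and its matrix cells had the lowest mean Igf1 of the 7 captures, 237 FPKM. For Igf2 the myeloid minus matrix difference was -1.91 at day 12 capture 2 and 0 in the other 3, where both kinds were at 0. With 3 captures at 0 in both kinds, any other value would have stood apart. No difference between day 12 and the later days in the mural minus matrix comparison passed the test for any of the 10 genes.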

How the results depend on the processing

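Of 986 alternative values of single genes and detection shares, 862 were counted as the same and 69 as moved. Another 49 no longer passed, 6 newly passed and 0 reversed a called direction. For a gene that did not pass, moved was a shift to 0 or past it, however small. A shift of any size with the same sign counted as the same. In mural against matrix cells, Igf2r counted as moved from 0.0451 to -0.00223 without day 15 capture 1. Igf1r counted as the same at -0.964 and at -2.02 with Col1a1 below 1000 FPKM. Between mural and matrix cells 4 members passed, against 2 with a pseudocount of 10, 0 with no filter on low values, 0 with no variance trend and 1 to 3 with a capture left out. Over all genes 214 passed (125 higher), against 33 (31 higher) with no filter, 742 (309 higher) with log2 values averaged, 88 (66 higher) with no variance trend, 563 (111 higher) with Col1a1 below 1000 FPKM, where the median of all genes moved from -0.22 to -0.72, and 106 to 214 with a capture left out. Between myeloid and matrix cells 3 members passed, against 0 with a pseudocount of 10, with no filter or with at least 5 cells, and 0 to 1 with a capture left out. Over all genes 708 passed (191 higher), against 227 (128 higher) with a pseudocount of 10, 38 (35 higher) with no filter, 380 (187 higher) with all cells, 1415 with log2 values averaged, 1107 with a total of 1000000 per cell, where the median of all genes moved from -0.999 to -1.20, 117 (97 higher) with at least 5 cells, 317 with Col1a1 below 1000 FPKM, and 111 to 188 with a capture left out. Without capture as a replicate block the myeloid comparison passed 1253 genes and 2 members, and the mural comparison 247 genes and 3 members. For day 15 against day 12, 0 genes passed, against 1 with a pseudocount of 10, 1 with all cells, 7 (1 member, Igfbp2) with log2 values averaged, 2 with stricter limits and 0 to 1 with a capture left out. For day 21 against day 12, 1 gene passed, against 2 with a pseudocount of 10, 0 with no filter, 35 (1 member, Igfbp2) with log2 values averaged, 3 with stricter limits and 0 to 1 with a capture left out. For day 21 against day 15, 1 gene passed, against 0 with no filter, with log2 values averaged or with no variance trend, and 0 to 1 with a capture left out. The change of the mural difference after day 12 had 0 genes, and 1 with Col1a1 below 1000 FPKM. Capture numbers did not pair the captures of different days (correlation of deviations of same-numbered captures at most 0.0252), and with the number as a replicate block 0 genes passed in the day comparisons. The cause of these shifts was not tested. The number of captures, 4 to 7 per comparison, and the share of cells at 0 limit the precision.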

Other observations

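The 11 cells that met none of the 3 definitions were left out of all comparisons, 5 of them from day 15 capture 1. Igfbp7 reached 10 FPKM in 8 of the 11, with a median of 180 FPKM and a highest value of 503, and Igfbp5 in 6, with a median of 19.3 FPKM. Igf1 reached 10 FPKM in 3 of them, at up to 974 FPKM, and Igf2 in none.

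Captures with fewer than 3 cells of a kind were left out of the comparisons of that kind. The single mural cell of day 15 capture 2 had 294 FPKM of Igfbp7, 241 of Igfbp4 and 0.26 of Igf1. The 2 myeloid cells of day 12 capture 1 had a mean of 802 FPKM of Igf1 and 0.040 of Igf1r, and the single myeloid cell of day 12 capture 3 had 1098 and 0.28 FPKM.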
